A study of Homo sapiens with 10 samples.

Results

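PPP1R3B and 8 further genes of glycogen metabolism were followed across GIST-T1 cells with and without disrupted CTCF insulators. The 9 genes, taken by symbol from 58381 gene rows, were PPP1R3B, PPP1R3C, GYS1, PYGL, PYGB, PYGM, GBE1, GYG1 and UGP2. PPP1R3B was chosen by its low level in the disrupted lines against control in these same libraries, and the other 8 as genes of its pathway. Values against control are therefore given for these 9 genes as a description, with no p-value. How many of them lay past the threshold is given beside the share of all genes, and members whose call moved with the processing are named. Nothing is read from either. Tests are given for comparisons between the disrupted lines and for genes outside the 9.

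GIST-T1 is an established human line from a metastatic gastrointestinal stromal tumour, a tumour of the interstitial cell of Cajal lineage, and its succinate dehydrogenase is intact. The control group carries the genotype label WT, and the 4 derivative lines carry the genotype labels InsE, InsF, InsG and InsH, each with a disrupted insulator, a site where the protein CTCF separates chromosome neighbourhoods. Each of the 5 groups had 2 libraries of polyadenylated RNA, numbered replicate 1 and 2, and no treatment is given. The edit behind each letter, the number of clones per line and the origin of paired libraries (separate cultures or not) are not stated in the labels. The p-values therefore set a difference only against the spread of these libraries within groups, which may be technical.

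Glycogen is the branched store of glucose. Glycogenin (GYG1) starts the chain, UGP2 makes the UDP-glucose that feeds it, glycogen synthase (GYS1) extends it, and the branching enzyme (GBE1) adds branch points. The phosphorylases PYGL (liver form), PYGB (brain form) and PYGM (muscle form) release glucose units from it. Protein phosphatase 1 switches synthase on and phosphorylase off when a targeting subunit of the PPP1R3 family carries it to the glycogen particle. PPP1R3B is the subunit best known from liver, and PPP1R3C, also called PTG, is found in many tissues.

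Libraries held 9.4 to 42.5 M (mega) expected counts, and replicate 1 was the deeper of the pair in every group. All 9 GIST markers reached 1 CPM (counts scaled by library size and TMM factors). Their summed level was 8698 to 8743 CPM in control and 6287 to 6746 CPM in the lines. None of 5 hepatocyte or 5 skeletal muscle markers reached 1 CPM in any library, with ALB, SERPINA1, MYH1 and MYH2 at 0 in all of them. All 4 fibroblast markers did, at 4064 to 4066 CPM summed in control and 3427 to 5938 CPM in the lines. The part of these marker differences in the results below was not tested.

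PPP1R3B was the member with the widest gap between control and lines on the log2 scale. The gene lies on chromosome 8 (9136255 to 9151574, minus strand, hg38). The control libraries had 173 and 122 counts, which is 5.80 CPM in replicate 1 and 6.26 CPM in replicate 2. The InsE libraries had 2.11 and 2.01 CPM, those of InsF 1.83 and 1.01, of InsG 1.80 and 1.07, and of InsH 1.60 and 1.24. In bulk RNA, fewer cells with the transcript and less of it per cell cannot be told apart. All 8 line libraries lay below both control libraries, and both InsE libraries lay above all 6 of InsF, InsG and InsH.

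The mean level was 6.03 ± 0.33 CPM in control and 2.06 ± 0.07 CPM in InsE (SD, n = 2). It was 1.42 ± 0.58 CPM in InsF, 1.44 ± 0.51 CPM in InsG and 1.42 ± 0.25 CPM in InsH. The fitted log2 fold change against control was -1.54 ± 0.28 (SE) for InsE, a level 2.9 times lower. For InsF it was -2.02 ± 0.29 (4.06 times lower), for InsG -1.97 ± 0.28 (3.91 times) and for InsH -2.05 ± 0.29 (4.15 times). By replicate number, control had 5.80 CPM against 1.60 to 2.11 in replicate 1, and 6.26 against 1.01 to 2.01 in replicate 2. The shared direction follows from the separation of all libraries given above. In all 4 lines replicate 1 read higher than the shallower replicate 2, where InsG had 12 counts and InsF and InsH had 15 each.

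PPP1R3B was chosen by its level against control, not by differences between the lines, though earlier results of these data were known. Between the lines it did not pass the test. InsE exceeded the mean of InsF, InsG and InsH by 0.48 ± 0.25 on the log2 scale (adjusted p = 0.203, edgeR quasi-likelihood test). The test for any difference among the 4 lines gave an adjusted p of 0.55, and that among InsF, InsG and InsH an adjusted p of 1.0. In the order of levels, control stood apart from InsE, InsE from InsG by a narrow margin, and InsG, InsH and InsF overlapped. The long noncoding RNA RP11-10A14.3, which overlaps PPP1R3B on the opposite strand, had 0 counts in all 10 libraries.

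**Figure D1:**
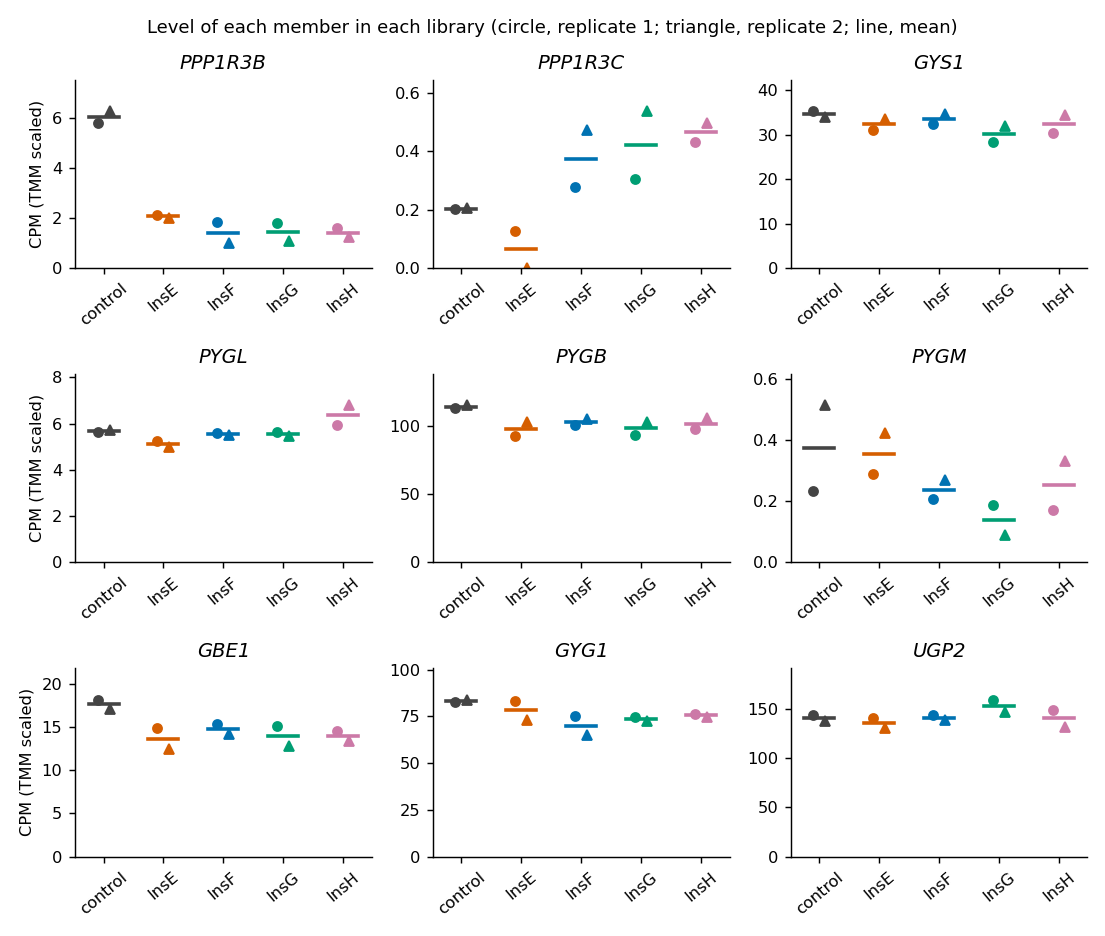
Level of the 9 genes in CPM (vertical axis, TMM scaled, from 0) in each library of the 5 groups; circles are replicate 1, triangles replicate 2 and lines the mean of both. PPP1R3B lay at 5.80 and 6.26 CPM in control and at 1.01 to 2.11 CPM in the lines. PYGB and GBE1 also lay below control in all 8 line libraries, by a smaller margin on the log2 scale. PPP1R3C and PYGM stayed under 1 CPM.

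PPP1R3C, the other targeting subunit among the 9, was close to the limit of detection (chromosome 10, 91628442 to 91633054, minus strand). It had 6 and 4 counts in control and 4 and 0 in InsE. The InsF libraries had 8 and 7 counts, those of InsG 13 and 6, and those of InsH 10 and 6. The 0 in InsE replicate 2 allows a level of up to 0.319 CPM, above both control libraries, so the order of InsE and control was not detectable at this depth. PPP1R3C passed the expression filter, which asks for 0.465 CPM in 2 libraries, through InsF, InsG and InsH alone.

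InsE lay -2.01 ± 0.65 on the log2 scale from the mean of InsF, InsG and InsH in PPP1R3C, on 4 counts in InsE. As the filter admitted the gene through those 3 lines, this difference is a description and has no p-value. Its log2 difference from control was -1.07 ± 0.80 for InsE and 0.79 ± 0.63, 0.89 ± 0.62 and 1.15 ± 0.63 for InsF, InsG and InsH in that order.

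TPM values, which are corrected for transcript length, allow levels to be set beside each other. In control the mean TPM was highest for UGP2 at 137.1 ± 2.38 (SD, n = 2), then GYG1 at 75.7 ± 1.68, PYGB at 43.8 ± 0.57, GYS1 at 16.7 ± 1.73 and GBE1 at 9.79 ± 0.02. PYGL followed at 4.0 ± 0.11 and PPP1R3B at 1.87 ± 0.18, while PYGM at 0.22 ± 0.11 and PPP1R3C at 0.13 were lowest. PPP1R3B had 1.74 and 2.0 TPM in control and 0.28 to 0.61 TPM in the lines.

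GYS1 (chromosome 19, 48968125 to 48993310, minus strand), the synthase whose phosphatase the targeting subunits carry, showed overlapping levels. Control had 35.3 and 34.0 CPM, InsE 31.2 and 33.5, InsF 32.4 and 34.6, InsG 28.4 and 32.0, and InsH 30.3 and 34.6. The mean of the lines differed from control by -0.12 ± 0.07 on the log2 scale, and in TPM the control libraries (15.5 and 18.0) spanned most of the range of the lines (14.6 to 18.2). Among the 4 lines the adjusted p for GYS1 was 0.586 (edgeR).

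GBE1 (chromosome 3, 81489699 to 81762161, minus strand), the branching enzyme, was lower in every line library than in either control library. Control had 18.2 and 17.04 CPM, InsE 14.9 and 12.5, InsF 15.3 and 14.2, InsG 15.2 and 12.8, and InsH 14.5 and 13.4. The log2 difference was -0.31 ± 0.08 for the mean of the lines, and the single lines ran from -0.25 ± 0.11 for InsF to -0.34 ± 0.11 for InsE. It was -0.20 on log2(TPM + 1). In all 4 lines replicate 1 read higher than replicate 2.

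GYG1 and UGP2, which prime and feed the chain, were the most abundant of the 9. GYG1 had 82.8 and 84.0 CPM in control, and the lines ran from 65.0 CPM in InsF replicate 2 to 83.4 CPM in InsE replicate 1, so the groups overlapped. Its log2 difference for the mean of the lines was -0.16 ± 0.06. For UGP2 control had 144.0 and 138.0 CPM, InsE 140.6 and 130.9, InsF 143.2 and 138.8, InsG 159.2 and 146.6, and InsH 148.7 and 131.6. The UGP2 levels of control lay inside those of the lines, with a log2 difference of 0.02 ± 0.06.

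Among the phosphorylases PYGB (chromosome 20, 25248069 to 25298014, plus strand) made up nearly all of the message. Its share of the summed TPM of PYGB, PYGL and PYGM was 91.0% and 91.5% in control and 88.6% to 91.9% in the lines. PYGL held 8.25% to 8.39% in control and 7.46% to 11.0% in the lines, and PYGM at most 1.13% in any library. The highest PYGM share came from InsG replicate 1, where 8 counts were divided by an effective length of 597 bases, against 2204 to 2981 bases elsewhere.

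For PYGB control had 113.6 and 115.5 CPM, InsE 92.7 and 103.6, InsF 100.7 and 105.2, InsG 94.0 and 103.3, and InsH 97.9 and 106.3. All 8 line libraries lay below control, by -0.19 ± 0.06 on the log2 scale for the mean of the lines. PYGL had 5.63 and 5.75 CPM in control and 4.97 to 6.79 CPM in the lines, which overlapped. PYGM had 1 to 10 counts per library and was left out by the expression filter. Fitted without the filter, its mean difference was -0.63 on the log2 scale.

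The ratio of GYS1 TPM to the summed phosphorylase TPM sets the synthase beside the enzymes of release. Control gave a ratio of 0.378 and 0.319, InsE 0.431 and 0.429, InsF 0.374 and 0.361, InsG 0.353 and 0.312, and InsH 0.336 and 0.362. Both InsE libraries lay above the other 8, while the control libraries spanned most of the range of InsF, InsG and InsH. For InsE this order rests on the length correction. The effective length of GYS1 was 2650 and 2632 bases in InsE and 2884 to 3340 bases elsewhere. In CPM, without it, GYS1 in InsE (31.2 and 33.5) lay within the range of the other libraries (28.4 to 35.3). This ratio was not tested.

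Past the threshold of 0.05 in each line against control lay PPP1R3B, which its choice fixed, and 0 of the 7 others that could be tested. Over all 15554 genes tested, the share past the threshold was 23.2% for InsE, 22.3% for InsF, 20.3% for InsG and 18.4% for InsH. These comparisons share the same 2 control libraries. In the mean of the 4 lines PYGB and GBE1 lay past it beside PPP1R3B, all lower, where 27.6% of all genes did, 13.1% higher and 14.5% lower. The median log2 difference of the 8 tested members was -0.14, and that of all genes 0.01. With library sizes alone, in limma on log2(TPM + 1) and without either control library PYGB and GBE1 lay short of the threshold, and GBE1 also in DESeq2. These counts describe genes chosen on the same comparison, and nothing is read from them.

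In comparisons without control, PPP1R3C aside, 0 of 7 members passed for InsE against the mean of InsF, InsG and InsH, where 24.2% of all genes did. For any difference among the 4 lines 0 of 7 passed, against 13.2% of all genes, and among InsF, InsG and InsH 0 of 7, against 0.09%. At an unadjusted p under 0.05 edgeR without a replicate block and DESeq2 also gave 0 of 7 in these 3 comparisons. Both limma fits gave PYGL and UGP2 for InsE, UGP2 among the 4 lines and 0 of 7 among InsF, InsG and InsH. Between the lines the replicate numbers deviated together. With the number as a block, the shares of all genes were 38.2%, 35.0% and 2.8% in the same order, and UGP2 passed among the 4 lines (adjusted p = 0.0242, edgeR). At an unadjusted p under 0.05 the blocked fit gave GYG1 and UGP2 for InsE, and UGP2 alone in both other comparisons. UGP2 differed between InsE and the other 3 lines by -0.09 ± 0.06 on counts (adjusted p = 0.322, edgeR) and by -0.21 on log2(TPM + 1), where it passed (adjusted p = 0.0351, limma).

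**Figure D2:**
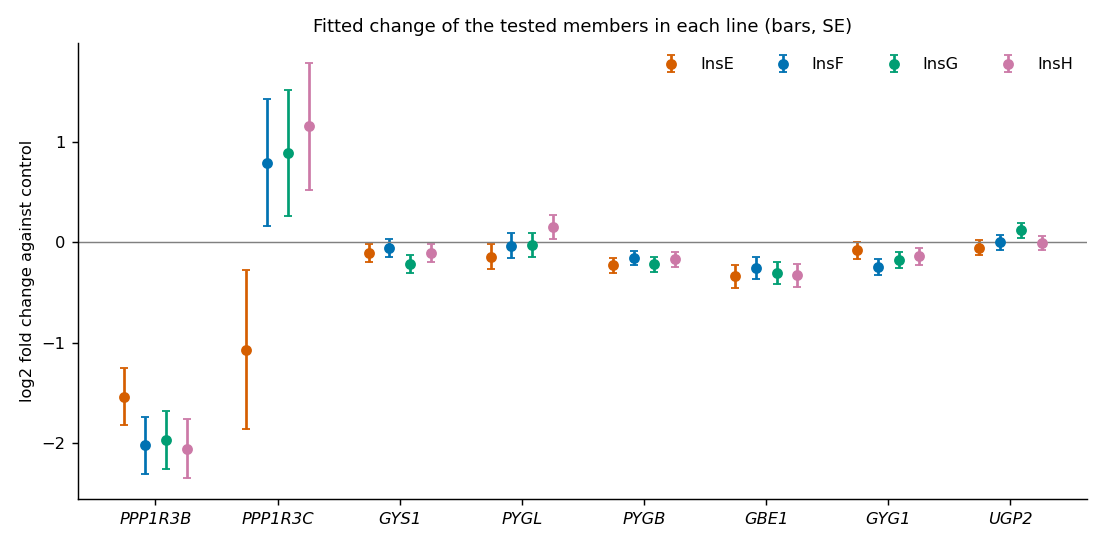
Fitted log2 fold change against control (vertical axis) of the 8 tested members in each of the 4 lines, with bars for the SE. PPP1R3B sits between -1.54 and -2.05 in all lines, PPP1R3C has the widest bars, and the enzymes lie between -0.34 and 0.15.

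The remaining subunits of the phosphatase gave a view of the family around PPP1R3B. PPP1R3B held 18.1% and 19.5% of the summed TPM of the 7 PPP1R3 genes (PPP1R3A to PPP1R3G) in control and 2.87% to 6.61% in the lines. PPP1R3A, the muscle subunit of the family, held 4.25% and 5.96% in control and 8.33% to 16.3% in the lines. PPP1R3E was the largest share throughout, with 43.4% to 43.8% in control and 40.2% to 53.6% in the lines. PPP1R3D held 17.3% to 22.3% in all libraries, and PPP1R3G at most 0.17%. The shares of PPP1R3A and PPP1R3B stood in opposite order, with PPP1R3A above PPP1R3B in all 8 line libraries and below it in both control libraries. For InsE this order rests on the length correction: in CPM, without it, PPP1R3A lay below PPP1R3B in both InsE libraries (1.57 against 2.11 and 1.375 against 2.01). The 16.3% came from 13 counts in InsE replicate 2, divided by an effective length of 1478 bases, against 3381 and 3707 bases in control.

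**Figure D3:**
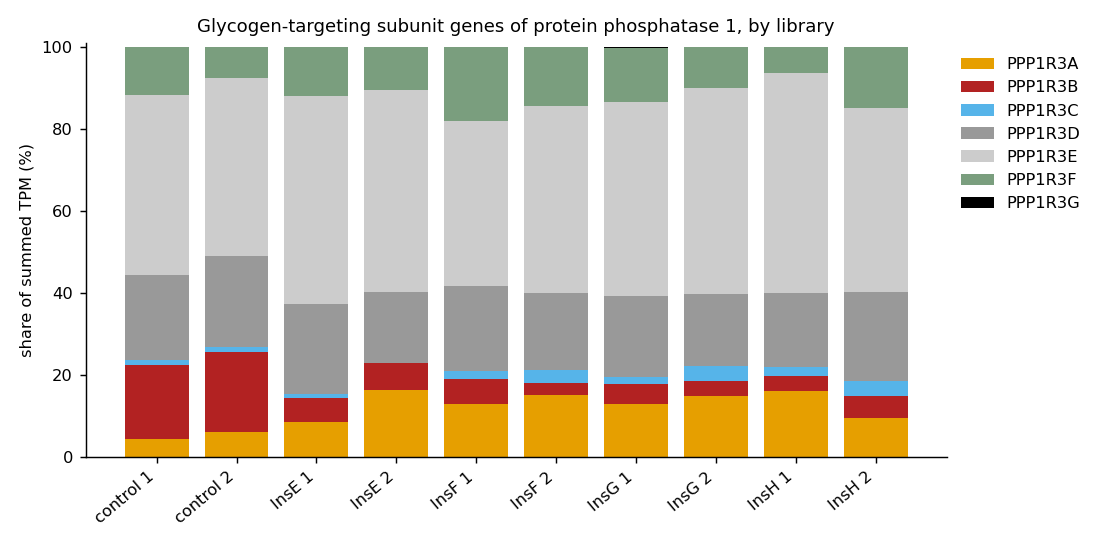
Share of each PPP1R3 gene in the summed TPM of the 7 genes (vertical axis, percent) in the 10 libraries. The PPP1R3B segment is 18.1% and 19.5% in control and at most 6.61% in the lines, and the PPP1R3A segment runs from 8.33% to 16.3% in the lines, the highest from 13 counts.

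Of 9 tested genes for other subunits, catalytic subunits and inhibitors of protein phosphatase 1, the mean of the lines was higher for 1 (against 13.1% of all genes) and lower for 0 (against 14.5%) past the threshold, with a median of -0.13. At an unadjusted p under 0.05 1 was lower (PPP1CB), and limma on log2(TPM + 1) called 0 in either direction. For PPP1R3A control had 0.94 and 1.54 CPM, InsE 1.57 and 1.375, InsF 2.35 and 2.42, InsG 3.55 and 3.13, and InsH 3.88 and 2.24. The libraries of InsF, InsG and InsH lay above both control libraries, and those of InsE overlapped control. PPP1R3A rose by 1.03 ± 0.26 on the log2 scale in the mean of the lines (adjusted p = 0.0156, edgeR), by 1.47 ± 0.30 in InsG and by 1.37 ± 0.31 in InsH.

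In InsF PPP1R3A differed by 0.97 ± 0.31 (adjusted p = 0.0505) and in InsE by 0.30 ± 0.33 (adjusted p = 0.549, edgeR). InsE was lower than the mean of InsF, InsG and InsH by -0.97 ± 0.27 (adjusted p = 0.0265, edgeR). The mean of the lines no longer passed once control replicate 1 was left out (0.68, adjusted p = 0.224), nor in limma on log2(TPM + 1) (0.61, adjusted p = 0.0754). That for InsE was lost in DESeq2 (adjusted p = 0.0833), without either InsE library (adjusted p = 0.133 and 0.118) and without InsG replicate 1 (adjusted p = 0.0536). On log2(TPM + 1) it was -0.22 (adjusted p = 0.497) and on log2(TPM + 0.1) -0.37 (adjusted p = 0.523, limma).

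PPP1R3D differed by -0.16 ± 0.16, PPP1R3E by 0.19 ± 0.09 and PPP1R3F by -0.15 ± 0.21, none past the threshold. The catalytic subunit genes PPP1CA, PPP1CB and PPP1CC lay at -0.13 ± 0.10, -0.18 ± 0.07 and -0.03 ± 0.06. In InsE alone among the 4 single-line comparisons PPP1CB passed, lower than control, and it is named here after its values were seen.

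On the path from glucose to glycogen, 3 of 5 tested genes were called lower for the mean of the lines and 0 higher (median -0.28, all genes 0.01), while 4 of 9 listed genes were too low to test. Of all genes 14.5% were called lower, and on log2(TPM + 1) 2 of the 5 were. PGM1, the phosphoglucomutase that links glucose 6-phosphate to glucose 1-phosphate, fell by 0.58 ± 0.11 (adjusted p = 0.00337, edgeR). It had 7.98 and 6.57 CPM in control, 6.76 and 6.03 in InsE and 4.07 to 4.78 in the other 3 lines. InsE overlapped control and exceeded the other lines by 0.54 ± 0.12 (adjusted p = 0.00933). The fall in the mean was lost without control replicate 1 (-0.43, adjusted p = 0.104), and the InsE difference without InsE replicate 1 (0.44, adjusted p = 0.144).

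HK2, a hexokinase that traps glucose in the cell, separated InsE from the other 3 lines. It had 80.7 and 78.4 CPM in control, 76.5 and 80.3 in InsE, and 54.2 to 58.3 in InsF, InsG and InsH. Against control HK2 fell by 0.53 ± 0.06 (InsF), 0.46 ± 0.06 (InsG) and 0.51 ± 0.06 (InsH), while InsE differed from control by -0.02 ± 0.06 (adjusted p = 0.812). InsE exceeded the other 3 lines by 0.48 ± 0.05 (adjusted p = 0.000118, edgeR), and this call held in all 17 alternatives. PGM2L1, a relative of phosphoglucomutase, fell by 0.27 ± 0.08 in the mean of the lines (adjusted p = 0.0313), a call lost in DESeq2 (adjusted p = 0.0838) and without either control library (adjusted p = 0.219 and 0.16).

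Of 9 tested genes of glycogen breakdown and its control, 2 fell (14.5% of all genes) and 0 rose (13.1%), with a median of -0.003. On log2(TPM + 1) 2 were also called lower and 0 higher. That median was 0.05 with library sizes alone and 0.07 on log2(TPM + 1). GAA, the lysosomal alpha-glucosidase, had 32.5 and 33.3 CPM in control and 19.5 to 25.3 CPM in the lines, and fell by 0.55 ± 0.10 (adjusted p = 0.00269, edgeR). PHKA1, the muscle alpha subunit of phosphorylase kinase, had 58.1 and 58.9 CPM in control and 42.0 to 49.3 CPM in the lines, and fell by 0.36 ± 0.05 (adjusted p = 0.000658). Neither gene overlapped control in any line library, and both fell in each of the 4 lines.

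The 15 tested genes of glycogen regulation encode kinases, the insulin receptor and its adaptors, which act on or upstream of synthase or phosphorylase kinase. Of these, 5 fell (14.5% of all genes) and 1 rose (13.1%), with a median of -0.19. On log2(TPM + 1) 3 were called lower and 1 higher. GSK3B, a kinase that inhibits glycogen synthase, had 81.3 and 79.8 CPM in control and 57.1 to 66.7 CPM in the lines, and fell by 0.40 ± 0.04 (adjusted p = 0.000136, edgeR). PRKAA2, a catalytic subunit of AMP-activated kinase, fell by 0.84 ± 0.11 (adjusted p = 0.00059). IRS1, the adaptor of the insulin receptor, fell by 0.74 ± 0.10 (adjusted p = 0.000735). For these 3 genes all line libraries lay below both control libraries.

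INSR, the insulin receptor, fell by 0.40 ± 0.11 (adjusted p = 0.0243, edgeR), from 8.69 and 8.78 CPM in control to 5.25 to 8.12 CPM, and lost this call in DESeq2 (adjusted p = 0.14) and without either control library (adjusted p = 0.167 and 0.16). PRKAG2 fell by 0.37 ± 0.06 (adjusted p = 0.00186) and PRKAB2 rose by 0.30 ± 0.08 (adjusted p = 0.0238), both regulatory subunits of AMP-activated kinase. PRKAA2 and IRS1 were lower in InsE than in the mean of the other 3 lines, by -0.56 ± 0.14 (adjusted p = 0.0172) and -0.65 ± 0.13 (adjusted p = 0.00544). Both calls were lost without InsE replicate 1 (adjusted p = 0.0682 and 0.113), and that of PRKAA2 also without InsE replicate 2 (adjusted p = 0.106).

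Of 7 tested genes of glucose transport and the glucose-6-phosphatase system, 1 was called higher (13.1% of all genes) and 1 lower (14.5%), with a median of 0.05. On log2(TPM + 1) neither was called. The 1 called higher was SLC2A3, which passed the expression filter through InsF, InsG and InsH alone, so its difference is a description and no p-value is given. SLC2A1, the widespread glucose transporter GLUT1, had 67.9 and 68.4 CPM in control and 48.5 to 61.5 CPM in the lines, and fell by 0.36 ± 0.07 (adjusted p = 0.00546, edgeR). It did not pass once control replicate 1 (adjusted p = 0.0686) or control replicate 2 (adjusted p = 0.0622) was left out. SLC2A3, the transporter GLUT3, had 2 and 1 counts in control, 7 and 0 in InsE, and 9 to 30 per library in InsF, InsG and InsH. Pooled, the lines had 97 counts and control 3, a ratio of 9.54 after library size. This ratio comes mostly from InsF, InsG and InsH and rests on 3 counts in control, so it is likewise a description.

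**Figure D4:**
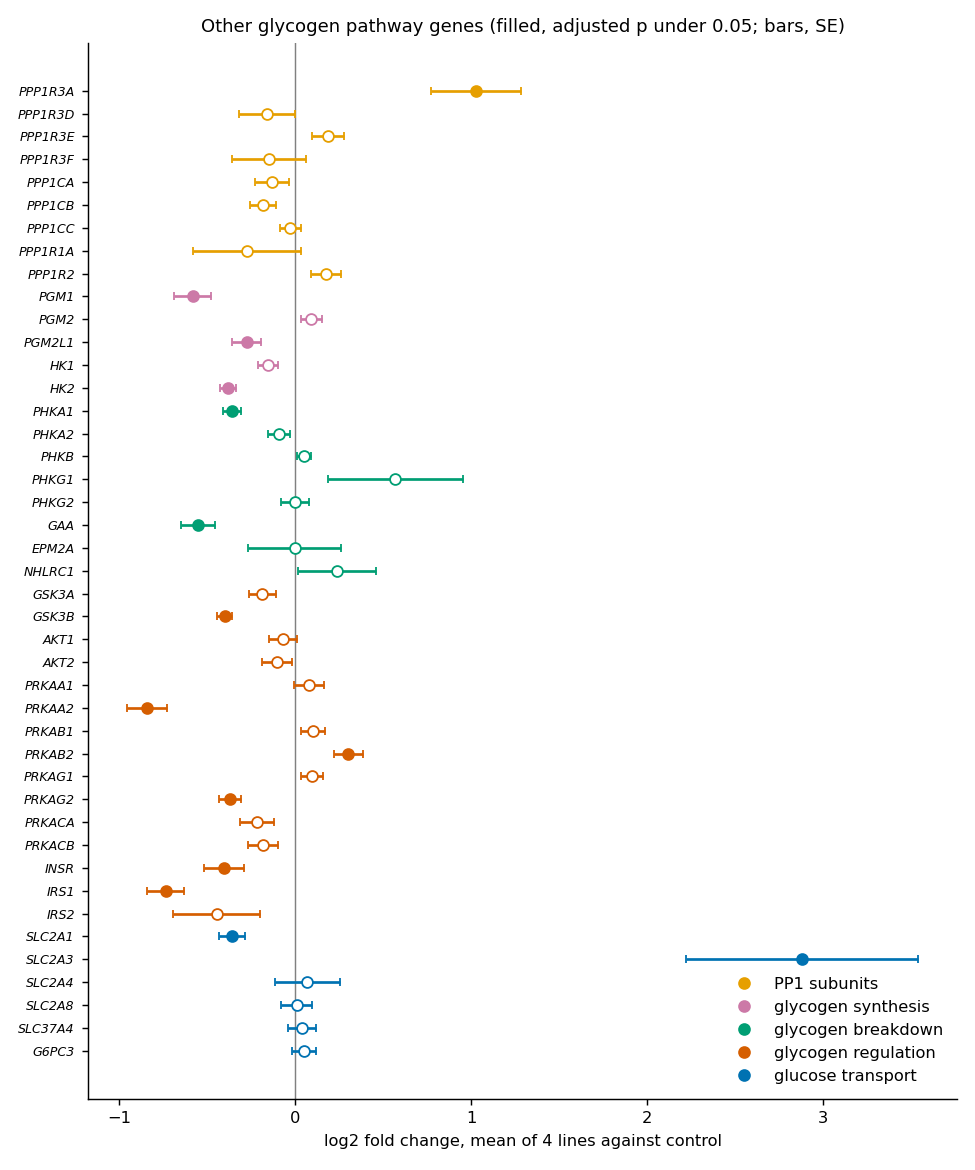
Log2 fold change of the mean of the 4 lines against control (horizontal axis) for tested pathway genes outside the 9, coloured by list; filled points passed an adjusted p of 0.05 and bars are the SE. SLC2A10, with 0 counts in control and InsE, has no usable SE and is not drawn; most genes lie within 0.5 of zero, with PPP1R3A at 1.03 and SLC2A3, tested only through InsF, InsG and InsH, at 2.88 to the right.

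The genes on either side of PPP1R3B on chromosome 8 were examined next. PRAG1, a pseudokinase gene that starts 765.1 kb from the PPP1R3B start, had 12.1 CPM in both control libraries and 3.83 to 6.39 CPM in the lines. It fell by 1.47 ± 0.14 on the log2 scale in the mean of the lines (adjusted p = 7.59e-05, edgeR), and in each single line, from 1.28 ± 0.19 for InsF to 1.63 ± 0.20 for InsE. The call for the mean held in all 17 alternatives.

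MSRA, a methionine sulfoxide reductase gene 902.7 kb away on the other side, fell by 0.52 ± 0.07 (adjusted p = 0.000839), and MFHAS1, 257.9 kb away, by 0.41 ± 0.05 (adjusted p = 0.000539, edgeR). On log2(TPM + 1) MFHAS1 differed by -0.18 (adjusted p = 0.219, limma). TNKS, the tankyrase gene 404.3 kb away, fell by 0.20 ± 0.06 (adjusted p = 0.0322), a call lost in 7 of 17 alternatives. ERI1, an exonuclease gene and the nearest tested one at 149.4 kb, had 36.4 and 36.6 CPM in control and 33.8 to 41.9 CPM in the lines, a difference of 0.00 ± 0.08 (adjusted p = 0.984). CLDN23 at 449.6 kb differed by -0.57 ± 0.29 (adjusted p = 0.171) at about 1 CPM.

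Within 2 Mb of the PPP1R3B start, 10 other genes were tested, of which 5 fell and 0 rose, against 14.5% of all genes lower. The fifth was CTD-2135J3.2, which fell by 0.36 ± 0.08 (adjusted p = 0.00915, edgeR). Within 1 Mb 4 of 7 fell, and within 5 Mb 8 of 26 fell and 1 rose. The count within 2 Mb was 3 in DESeq2, in both limma fits and without either control library. These windows were chosen after the data were seen, neighbouring genes are not independent, and no test was made of the counts.

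**Figure D5:**
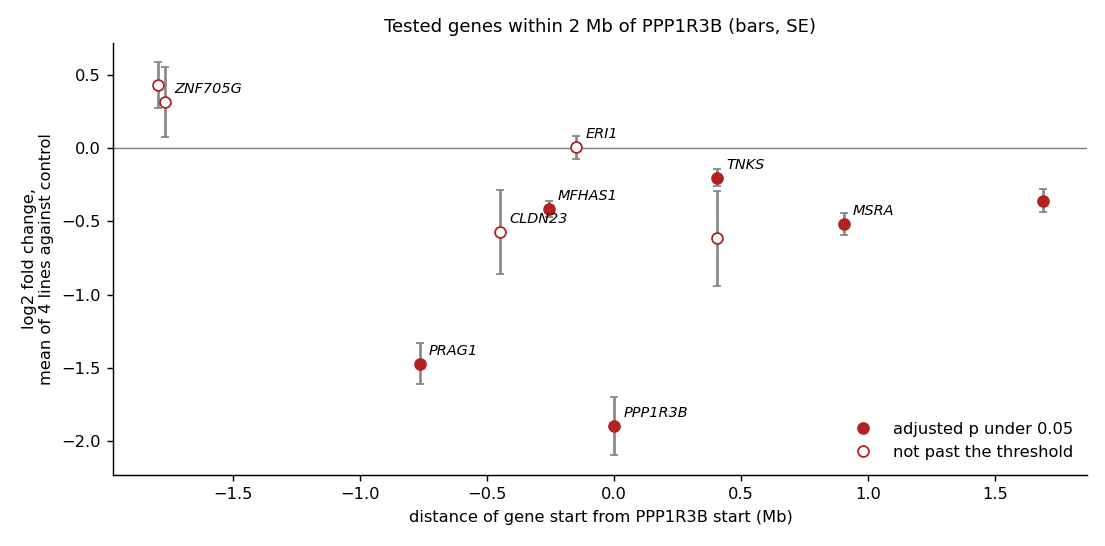
Log2 fold change of the mean of the 4 lines against control (vertical axis) by distance of each tested gene's start from the PPP1R3B start (horizontal axis, Mb); filled points passed an adjusted p of 0.05 and bars are the SE. PPP1R3B at -1.90 and PRAG1 at -1.47 are lowest, and ERI1 between them lies at 0.00.

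The genes whose profile over the 10 libraries was closest to that of PPP1R3B were BEND4, P3H3, HOXA13, PPM1M and HMX1. Likeness was the root mean square difference of log2 CPM, each gene centred on its own mean, and was 0.31, 0.315, 0.328, 0.333 and 0.339 in that order. P3H3, a collagen prolyl hydroxylase gene, had 23.3 and 24.4 CPM in control, 7.78 and 8.46 in InsE and 5.65 to 6.88 in the other lines. HOXA13, a homeobox gene, had 17.1 and 18.2 CPM in control, 10.2 and 8.78 in InsE and 5.45 to 8.11 in the others. BEND4 had 8.15 and 8.01 CPM in control and 1.62 to 3.07 in the lines. Since likeness to PPP1R3B over all 10 libraries selected these genes, their values against control and between the lines are a description.

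No source used here gives the strand setting of the counting, so reads of genes that overlap on opposite strands cannot be told apart. This touches PGM1 (with ITGB3BP), HK2 (RP11-259N19.1), PGM2L1 (RP11-702H23.4), SLC2A1 (a transcript known by its clone), TNKS (RP11-375N15.2) and HOXA13 (HOTTIP).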

How the data were processed

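RNA of 10 GIST-T1 libraries (5 groups, 2 libraries each) was analysed from the deposited tables. The submitters' processing notes name build hg38, RSEM 1.3.2, STAR 2.5.3 and DESeq2 1.38.3. For annotation release and strand setting, nothing is stated in the sources used. Deposited per gene were expected counts, RSEM estimates before any scaling between libraries, with 10.2% to 12.8% of values not whole. The deposited TPM values are length-corrected shares and keep no depth, and the deposited effective length in bases is RSEM's own. In a further deposited table of TPM values, 10 value columns matched no label and were not used.

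Rounded expected counts entered edgeR 4.0.16 in R 4.3.3 (robust quasi-likelihood fit) after TMM scaling and edgeR's filter (minimum count 10), leaving 15554 of 58381 genes. One fit held all 10 libraries, with 5 residual degrees of freedom. Two-sided p-values were adjusted by Benjamini-Hochberg over all tested genes. Alternatives were RLE size factors, library sizes alone, no expression filter, DESeq2 1.42.0, limma 3.58.1 on log2(TPM + 1) and log2(TPM + 0.1), a replicate block and each library left out. The labels do not say what a replicate number marks; over 9418 genes the difference of replicate 1 and 2 correlated at 0.748 to 0.783 between lines, so the numbers were taken to pair the line libraries, and blocked values stand beside comparisons between lines where they change a call or count. The block used 1 replicate term for all 10 libraries, control included. A gene is called changed where its adjusted p is under 0.05. A count of 0 was read as up to 3 counts of the library total; this limit covers counting error only. Positions came from GENCODE release 29, which matched 58261 rows.

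The 9 members, the gene lists and the tests were chosen with earlier results of these data known. Named genes were the members, up to 4 called genes per list with the largest change in the mean of the lines (or, where none was called, the 2 most abundant), the neighbours of PPP1R3B, and the 5 genes with the profile most like PPP1R3B that are not clone names or pseudogenes. Other genes are named only to account for counts or families. A listed gene that stayed in the tests and counts is not reported here. On simulated counts for InsE against control over 15554 genes, the share recovered was 72.6% at a 1.5-fold change (45 of 62 genes). It was 80% at 2-fold (60 of 75) and 93.7% at 4-fold (59 of 63), and 16 unchanged genes were called. The simulation changed InsE alone, put no change in the lowest genes and held no deviation shared by replicate number. In the real data 3611 genes were called in InsE, so these shares describe the simulated setting only.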

Additional observations from a re-analysis of the deposited data

Results flagged for a closer look

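For 6 genes named above, the test of InsE against the mean of InsF, InsG and InsH passed, in a contrast that leaves out control, whose libraries still enter the shared estimate of spread. On the log2 scale InsE was lower for PPP1R3A (-0.97), IRS1 (-0.65) and PRKAA2 (-0.56). It was higher for PGM1 (0.54), HK2 (0.48) and GSK3B (0.15). Of these HK2 kept the call in all 17 alternatives, and each of the other 5 lost it in at least 3. Over all genes 24.2% passed this test. For 5 further genes the same difference is a description, since their choice used these libraries. SLC2A3 (-2.07) and PPP1R3C (-2.01) passed the expression filter through InsF, InsG and InsH alone. HMX1 (0.82), HOXA13 (0.52) and P3H3 (0.38) were picked for a profile like that of PPP1R3B, whose InsE libraries both lay above those lines.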

How the results depend on the processing

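The direction of PPP1R3B against control was fixed by its choice from these libraries, so its range is a description. Under the 17 alternatives its log2 change for the mean of the lines lay between -2.03 and -0.95. The PPP1R3B difference between InsE and the other 3 lines ran from 0.11 to 0.67 and passed in none. The -0.95 and the 0.11 are values on log2(TPM + 1). There the added 1 is larger than the 0.28 to 0.61 TPM of the lines and narrows both differences. InsE against those lines for GSK3B turned from 0.15 to -0.26 on log2(TPM + 1) and -0.27 on log2(TPM + 0.1); the cause was not tested. Of single-gene values under an alternative, 1764 stayed as they were, 84 moved, 110 lost a call, 39 gained one and 2 reversed.

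Counts of called genes depended on the setting. With DESeq2 they were 2212 in InsF, 2051 in InsG, 1856 in InsH, 2458 for InsE against the other lines, 33 among InsF, InsG and InsH, and 3 lower genes within 2 Mb of PPP1R3B. With limma on log2(TPM + 1) and log2(TPM + 0.1) they were 1791 and 1804 in InsE, 1661 and 1671 in InsF, 1329 and 1333 in InsG, 1367 and 1375 in InsH, 2236 and 2238 for the mean of the lines, 984 and 979 among the 4 lines, 4 and 4 among InsF, InsG and InsH, and 3 and 3 within 2 Mb. Without the expression filter 3660 genes passed among the 4 lines and 256 among InsF, InsG and InsH. With 1 library left out the counts were 1429 to 3516 in InsE, 1446 to 3390 in InsF, 1170 to 3142 in InsG, 1108 to 2845 in InsH, 1501 to 4311 for the mean, 1956 to 3495 for InsE against the other lines, 700 to 1873 among the 4 lines, 1 to 14 among InsF, InsG and InsH, and 3 to 5 within 2 Mb; a group left with 1 library was assumed to vary like the others. The share of higher genes among calls for the mean of the lines was 47.5%, against 62.3% with library sizes alone and 64.2% on log2(TPM + 1), and for InsE against the other lines 47.2%, against 23.7% on log2(TPM + 1).

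The replicate block (replicate number as a covariate) gave 5935 calls in InsE, 5886 in InsF, 5769 in InsG, 5317 in InsH, 6679 for the mean, 5942 for InsE against the other lines, 5442 among the 4 lines and 436 among InsF, InsG and InsH. With it UGP2 passed among the 4 lines (adjusted p = 0.0242, edgeR) and TNKS for InsE against the other lines (adjusted p = 0.0152, edgeR). Against control it moved calls of the members PYGB, GBE1, GYG1, GYS1 and UGP2. These moves are a description, and nothing is read from them. Among the other named genes, it changed no call of those refitted for the mean of the lines or for InsE against the other lines. For named genes outside the members, single-line calls and those among the 4 lines or among InsF, InsG and InsH were not compared under it. PPP1CA, PPP1CB, PPP1CC, PRKAG2, PRKAB2, SLC2A10 and CTD-2135J3.2 were not examined under it in any comparison. Between control and a line the difference of replicate 1 and 2 correlated at 0.0393 to 0.0499, so against control the numbers were not taken to pair the libraries. The block nevertheless gave control the same replicate term as the lines. Depth limits PPP1R3C and PYGM most, with 0 to 13 and 1 to 10 counts per library.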
